A study of Myotis pilosus with 4 samples.

Results

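miR-139-3p is the miRNA from the 3′ arm of the mir-139 hairpin, and it is 1 of the 119 conserved miRNAs that the study listed for the bat Myotis ricketti beside 77 bat-specific ones. It was chosen by the read count of its listed sequence, which was lower in hibernating than in active brain, so its brain values are a description and carry no test. Its reads were found by sequence. They were the tag (distinct read sequence) identical to the listed 23 nt, and then all 204 tags that began with its first 18 nt, out of 2315110 tags in the series. Small RNA of adult wild bats gave 4 libraries, active whole brain (AB), hibernating whole brain (HB), active white intra-abdominal adipose tissue (WAT, AA) and hibernating WAT (HA), and the sample labels call the active state aroused. Each library was the pooled RNA of 3 bats, both tissues of a state came from the same animals, and the study describes no genetic change or drug for the bats. The active bats were caught in October and the hibernating bats, in torpor, in March, and these circumstances cannot be told apart from the state. No condition had a replicate, every difference is one between pools, and intervals cover counting error only. AB held 10007650 clean reads, HB 12159756, AA 11437337 and HA 11542470. HA stood apart from the other libraries, with 1160810 different tags against 629437 in HB, 536068 in AA and 411552 in AB. The listed sequences took 13.2% of its reads against 20.9% in HB and AA and more in AB. Some values that rest on HA depended on the scaling, and the cause was not tested.

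A miRNA hairpin is cut by Drosha and then by Dicer into a short duplex whose strands are named 5p and 3p after their arm, and the strand kept in an Argonaute protein guides it to messenger RNAs. Target choice rests mainly on the seed, bases 2 to 8 counted from the 5′ end. A read that starts a base later has another seed, whereas a read shortened or extended at its 3′ end keeps it, and 3′ trimming and the addition of A or U are common steps in the life of a miRNA. In other mammals the mir-139 gene lies in an intron of PDE2A, which encodes a phosphodiesterase of cyclic nucleotides, and its miRNAs are known from brain and as restraints on growth in tumours.

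The sequences that follow carry the results. They are the listed sequence, its 3′-shortened forms of 22, 21 and 19 nt, the most abundant form with a different 3′ end, and the most abundant form without the first base. Capitals mark the seed of each read, and T stands for U as in the files.
listed 23 nt form: tGGAGACGcggccctgttggagt
22 nt form: tGGAGACGcggccctgttggag
21 nt form: tGGAGACGcggccctgttgga
19 nt form: tGGAGACGcggccctgttg
21 nt form with A added: tGGAGACGcggccctgttggaa
form without the first base: gGAGACGCggccctgttggagt
The first 5 share the seed GGAGACG, and the last has the seed GAGACGC. None of the other listed miRNAs had the seed GGAGACG. G and C made up 15 of the 23 bases of the listed sequence (65.2%), a share that only 2 of the 119 conserved miRNAs exceeded. No genome was used here, so the position of the gene in this bat is not given.

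The listed 23 nt sequence had 1430 reads in AB, 296 in HB, 912 in AA and 545 in HA. In reads per 1000000 clean reads (RPM) this was 143 in AB (95% exact interval 136 to 150), 24.3 in HB (21.6 to 27.3), 79.7 in AA (74.6 to 85.1) and 47.2 in HA (43.3 to 51.4). Active brain was the highest and hibernating brain the lowest, both WAT libraries lay between them, and no interval overlapped another. By reads of its listed tag, miR-139-3p ranked 30 among all listed miRNAs in AB and 56 in HB, against 34 in AA and 37 in HA.

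The order of the libraries changed when its other forms were counted. All tags that began with the first 18 nt had 10532 reads in AB (1052 RPM, 95% exact interval 1032 to 1073), 4112 in HB (338 RPM, 328 to 349), 4781 in AA (418 RPM, 406 to 430) and 2507 in HA (217 RPM, 209 to 226). With these tags HA, not HB, was the lowest library per clean read, while AB stayed the highest. Per 1000 reads of all listed tags, HB and HA were about level, at 1.61 and 1.65, against 4.38 in AB and 2.00 in AA. The listed tag therefore held a small part of the reads of this miRNA, 13.6% in AB (12.9 to 14.2%), 7.20% in HB (6.43 to 8.03%), 19.1% in AA (18.0 to 20.2%) and 21.7% in HA (20.1 to 23.4%).

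In brain, the listed tag was 4.80-fold lower in hibernation, a log2 ratio of HB to AB of -2.26 (95% counting interval -2.45 to -2.08) after scaling by TMM, the trimmed mean of M-values, computed over all listed miRNAs of the pair. Since whole tissue was pooled, fewer cells that make the miRNA and less of it per cell cannot be told apart. Of 153 listed miRNAs that had at least 10 reads in the pair, 27 had a log2 ratio of -1 or lower (17.6%) and 35 one of 1 or higher (22.9%), a background from which nothing is read because the brain ratio chose the miRNA. Its balance depended on the scaling, with 37 lower and 26 higher by total clean reads and 22 lower and 43 higher by TMM over the conserved miRNAs. With all tags of the first 18 nt, counted and scaled anew for every listed miRNA, the brain log2 ratio of miR-139-3p was -1.62 (-1.67 to -1.57), where 15.9% of 176 listed miRNAs were at -1 or lower and 11.9% at 1 or higher. Listed miRNAs with the same first 18 nt take the same reads by this rule. Such values are counted more than once in the shares, ranks and medians given here by the first 18 nt. Among conserved miRNAs with at least 100 reads in the pair, miR-139-3p had the lowest of 74 brain ratios by the listed tag and ranked 5 from the lowest of 87 by the first 18 nt, and the medians were -0.10 and -0.09.

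In WAT, the listed tag gave a log2 ratio of HA to AA of -0.41 (-0.56 to -0.25), a direction that depended on the scaling and turned to 0.37 with TMM over the conserved miRNAs alone, which raised every WAT ratio by 0.78. In this tissue 28.9% of 142 listed miRNAs were at -1 or lower and 20.4% at 1 or higher (41 and 29 miRNAs), a balance that TMM over the conserved miRNAs turned to 19 lower and 51 higher. miR-139-3p lay near the middle of the order, at rank 27 from the lowest of 63 conserved miRNAs with a median of -0.29. With all tags of the first 18 nt the log2 ratio was -0.69 (-0.76 to -0.62), at rank 26 from the lowest of 76 with a median of -0.05, and 29.0% of 162 listed miRNAs were at -1 or lower. Here too, miRNAs with the same first 18 nt are counted more than once. Under the scaling of the listed tags over conserved miRNAs the ratio of miR-139-3p by the first 18 nt was 0.18. The brain log2 ratio minus the WAT log2 ratio was -1.86 with the listed tag (-2.09 to -1.62) and -0.93 with the first 18 nt (-1.01 to -0.84). Both rest on the brain counts that chose the miRNA and are a description.

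The forms shortened at the 3′ end did not share one ratio. The 21 nt form was the most abundant tag of miR-139-3p over the 4 libraries, with 2044 reads in AB, 915 in HB, 937 in AA and 272 in HA. It led the tags in AB, HB and AA, whereas in HA the listed 23 nt form led and the 21 nt form came behind the 22 nt form. The 22 nt form had 1364 reads in AB, 324 in HB, 674 in AA and 393 in HA. The 19 nt form had 1391, 690, 455 and 198 reads in the same order, the 20 nt form 1374, 449, 375 and 172, and the 18 nt form 327, 122, 102 and 68. In RPM, each of the 6 lengths was highest in AB.

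**Figure D1:**
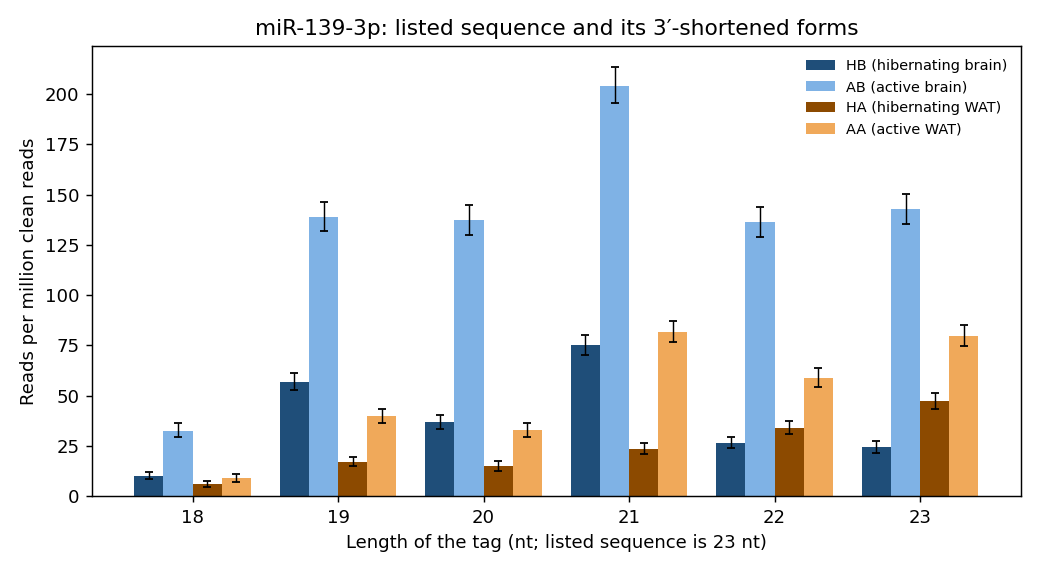
RPM (reads per 1000000 clean reads, linear axis from 0) of the listed 23 nt sequence of miR-139-3p and of the same sequence cut at its 3′ end to 18 to 22 nt, in 4 libraries of 1 pool each, with whiskers for 95% exact counting intervals. AB is the highest bar at every length, and HB lies above HA up to 21 nt but below it at 22 and 23 nt.

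In brain, the longest forms with the listed 5′ end were the lowest in hibernation relative to the active state. With the TMM scaling of the listed tags, the brain log2 ratio was -1.60 for 20 nt (95% counting interval -1.76 to -1.45), -1.15 for 21 nt (-1.26 to -1.04), -2.06 for 22 nt (-2.24 to -1.89) and -2.26 for 23 nt. That of 19 nt lay between -1.14 and -0.87, and the 18 nt form, with fewer reads, had -1.41 (-1.73 to -1.11). The ratio was below 0 at every length, and the intervals of 22 and 23 nt did not overlap those of the shorter forms.

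In WAT, the order of the lengths was another. The 21 nt form had the lowest WAT log2 ratio, -1.45 (-1.65 to -1.25), and stayed below 0 under all 5 scalings, from -1.80 with total clean reads to -0.67 with TMM over conserved miRNAs. The 19 nt form had -0.86 (-1.11 to -0.62) and the 20 nt form -0.79 (-1.06 to -0.52), which came to -0.086 and -0.0099 with TMM over conserved miRNAs. The 22 nt form had -0.44 (-0.63 to -0.26), which became 0.34 with TMM over conserved miRNAs, and the interval of the 18 nt form, -0.25 (-0.71 to 0.21), included 0. Among the 6 lengths, that of 21 nt thus had the largest state difference in WAT with TMM.

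Comparing forms within a pair of libraries does not depend on how the libraries are scaled. The log2 ratio of the 23 nt form minus that of the 21 nt form was -1.11 in brain (95% interval from the Poisson errors of the counts, -1.33 to -0.90) and 1.04 in WAT (0.79 to 1.29), which differed by -2.15 between the tissues (-2.48 to -1.83), and the brain value includes the reads that chose the miRNA. In hibernation the 23 nt form was scarcer relative to the 21 nt form in brain and more plentiful relative to it in WAT. The difference between brain and WAT for the 21 nt form itself did depend on scaling. It was 0.30 (0.07 to 0.52) with TMM, the WAT ratio being the lower, but -0.35 with TMM over the conserved miRNAs.

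**Figure D2:**
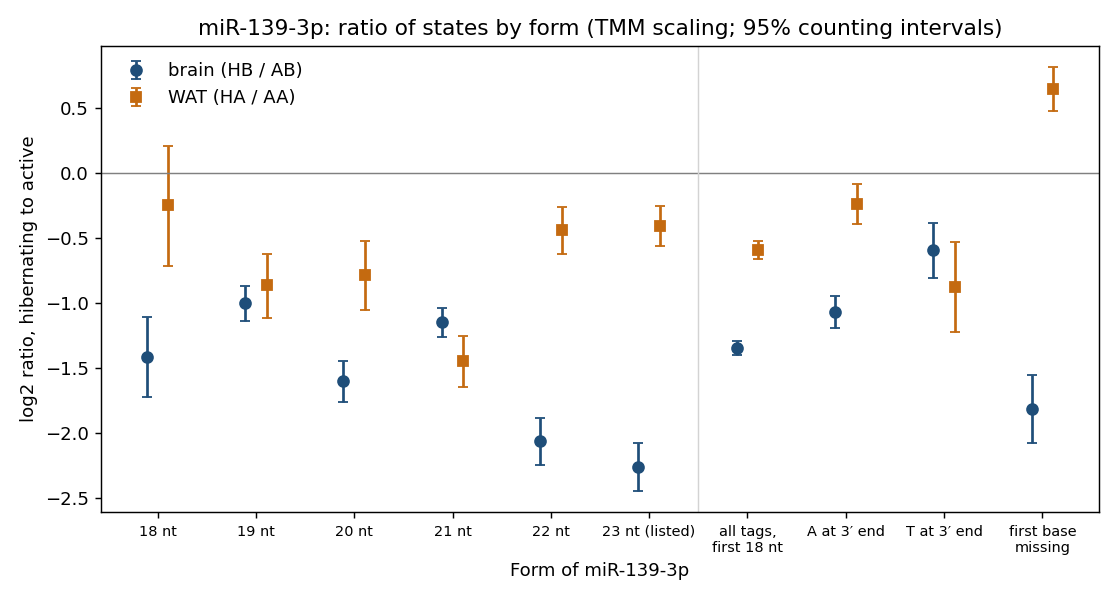
Log2 ratio of hibernating to active (TMM scaling of the listed tags) for the forms of miR-139-3p in brain (circles, HB over AB) and WAT (squares, HA over AA), with 95% exact counting intervals and no replicates. The circles of 22 and 23 nt, at -2.06 and -2.26, are the lowest of the circles drawn, whereas the lowest square is that of 21 nt at -1.45 and the highest is that of all reads without the first base at 0.65.

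The same 6 counts can be put as read lengths. Over the forms of 18 to 23 nt that match the listed sequence, the mean length was 20.9 nt in AB, 20.5 nt in HB, 21.3 nt in AA and 21.4 nt in HA. The forms of 22 and 23 nt made up 35.2% of these reads in AB (95% exact interval 34.2 to 36.3%), 22.2% in HB (20.6 to 23.8%), 45.9% in AA (44.2 to 47.6%) and 56.9% in HA (54.5 to 59.3%). Brain held shorter forms than WAT in both states, and the hibernating library had the lower share of long forms in brain and the higher share in WAT.

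The gap between the listed tag and all tags was set against other miRNAs. Conserved miRNAs of at least 20 nt were taken whose first 18 nt occur in no other listed miRNA and whose listed tag had at least 100 reads in the pair. Their log2 ratio by the first 18 nt minus that by the listed tag had a median of -0.04 in brain (n = 59) and 0.19 in WAT (n = 50). For miR-139-3p this gap was 0.64 in brain, where 1 miRNA was higher and 57 were lower, and -0.28 in WAT, where 46 were higher and 3 were lower. In brain the listed tag is what chose the miRNA, so its place there is a description.

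Reads whose 3′ end departed from the listed sequence were sorted by what followed the match. A alone after a listed stretch of 18 nt or longer was found in 15.6% of the reads with the first 18 nt in AB (95% exact interval 14.9 to 16.3%), 18.9% in HB (17.7 to 20.2%), 18.3% in AA (17.2 to 19.4%) and 23.4% in HA (21.7 to 25.1%). In each tissue the share with A was higher in the hibernating library than in the active one, and the intervals did not overlap. T in place of A was found in 4.55% of the reads in AB (4.16 to 4.96%), 7.66% in HB (6.87 to 8.52%), 4.94% in AA (4.34 to 5.59%) and 4.07% in HA (3.33 to 4.92%), so that HB stood above the other libraries. The most abundant of these tags, the 21 nt form with A added, had 615 reads in AB, 215 in HB, 331 in AA and 98 in HA. Without a genome, added bases could not be told from bases of the hairpin.

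**Figure D3:**
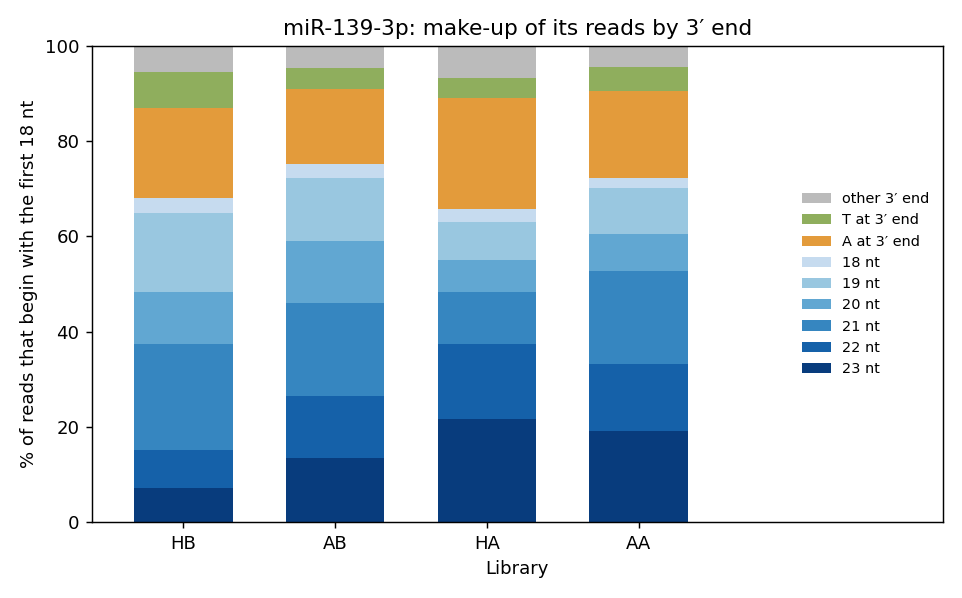
Share of reads (in %, of all reads that begin with the first 18 nt of miR-139-3p) by 3′ end in each library, with blue shades for the listed sequence at 18 to 23 nt and other colours for reads with A, T or other bases after the match. The darkest block, the listed 23 nt form, takes 7.20% in HB and 21.7% in HA, and the block with A is larger in HB than in AB and in HA than in AA.

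The 5′ end, which sets the seed, varied more in WAT than in brain. Of all reads with bases 2 to 17, those without the first base made up 5.02% in AB (559 of 11138 reads, 95% exact interval 4.62 to 5.44%), 3.67% in HB (158 of 4303, 3.13 to 4.28%), 9.92% in AA (532 of 5363, 9.13 to 10.8%) and 20.7% in HA (660 of 3188, 19.3 to 22.2%). The most abundant of them, the form without the first base printed above, had 229 reads in AB, 44 in HB, 250 in AA and 199 in HA. HA thus carried the shifted seed GAGACGC in a larger share than AB, HB or AA.

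In WAT the reads without the first base had a log2 ratio of HA to AA of 0.65 (0.48 to 0.81), which stayed above 0 under all 5 scalings, from 0.30 to 1.43, while the reads with the listed 5′ end had -0.60 (-0.67 to -0.53), which turned to 0.18 with TMM over conserved miRNAs. The most abundant tag without the first base did not share this, since the interval of its WAT log2 ratio, -0.27 to 0.28, included 0, and its brain log2 ratio was -2.37 (-2.87 to -1.90). The difference of 1.25 between all reads without the first base and those with the listed 5′ end (1.07 to 1.43) does not depend on scaling. In brain the difference had the other sign, -0.47 (-0.73 to -0.21). Among 57 conserved miRNAs, miR-139-3p included, that had at least 100 reads in every library, the median share without the first base was 1.17% in AB, 1.28% in HB, 1.15% in AA and 1.04% in HA, and 3 of them exceeded miR-139-3p in HA. From AA to HA the share differed by 10.8 percentage points for miR-139-3p and by 0.0299 in the median of the 57, and the difference was larger for 1 of them and smaller for 55.

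**Figure D4:**
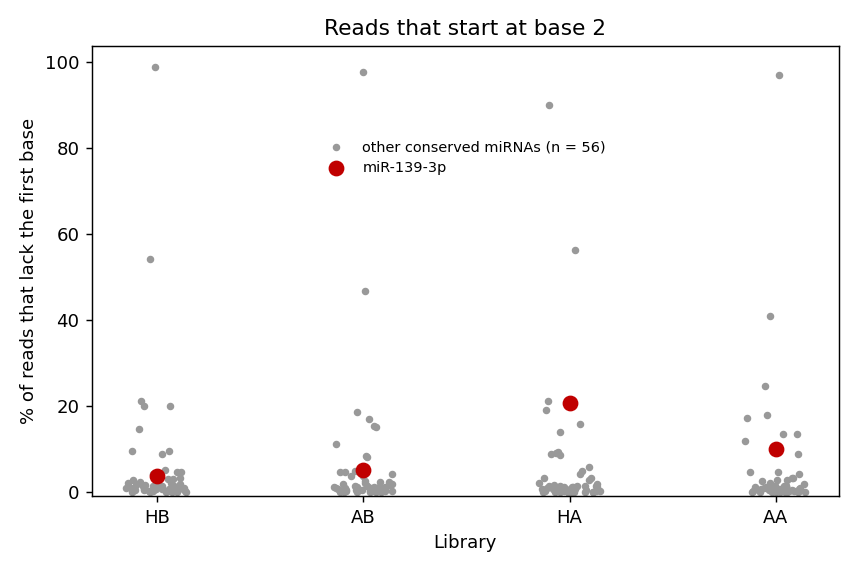
Share of reads (in %, linear axis) that lack the first base, of all reads with bases 2 to 17, for miR-139-3p (large points) and 56 other conserved miRNAs (small points, spread sideways for view) in each library. miR-139-3p lies at 3.67% in HB and 5.02% in AB, and at 20.7% in HA, where 3 miRNAs are higher.

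Tags of 23 nt that differed from the listed sequence at 1 of its first 18 bases were few. They had 43 reads in AB, 5 in HB, 40 in AA and 18 in HA, which is 3.01%, 1.69%, 4.39% and 3.30% of the reads of the listed tag.

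Between tissues, the listed tag was lower in WAT than in brain in the active state, with a log2 ratio of AA to AB of -0.75 (-0.87 to -0.63), and higher in WAT in the hibernating state, with a log2 ratio of HA to HB of 1.05 (0.84 to 1.26). Ratios of -1 or lower were found for 38.4% of 159 listed miRNAs in the active pair, and ratios of 1 or higher for 35.2% in the hibernating pair, so a tissue difference of such a size was common. In hibernation the 22 nt form was also higher in WAT, at 0.45 (0.23 to 0.67), as were the reads without the first base, at 2.23 (1.98 to 2.49). The shorter forms were lower in WAT in both states, and the 21 nt form had -1.23 in the active and -1.58 in the hibernating pair. Counted by the first 18 nt, miR-139-3p was likewise lower in WAT, with log2 ratios of -1.20 (-1.25 to -1.15) and -0.54 (-0.61 to -0.46).

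As controls for quantitative PCR, the study picked miRNAs that its sequencing gave as changed in brain but not in WAT. Beside miR-139-3p these were miR-7f-5p and miR-222-3p, and the PCR results are not given here. The sequence of miR-7f-5p is of the let-7 family of regulators of cell differentiation. miR-222-3p is known from the control of the cell cycle and of blood vessels. miR-7f-5p had 134582 reads in AB, 33998 in HB, 36531 in AA and 22072 in HA, with log2 ratios of hibernating to active of -1.98 in brain (-1.99 to -1.96) and -0.39 in WAT (-0.41 to -0.37). miR-222-3p had 5218 reads in AB, 1357 in HB, 2639 in AA and 3277 in HA, with -1.93 in brain (-2.02 to -1.85) and 0.65 in WAT (0.57 to 0.72). The 3 were picked for a brain change of the listed tag, so their brain values are a description and nothing is read from a move between count rules. Counted by the first 18 nt, all 3 came nearer to 0 in brain, at -1.62 for miR-139-3p, -1.66 for miR-7f-5p and -1.54 for miR-222-3p. In WAT the same rule gave -0.69 for miR-139-3p, -0.04 for miR-7f-5p and 0.68 for miR-222-3p, so miR-139-3p was the lowest of the 3 there.

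**Figure D5:**
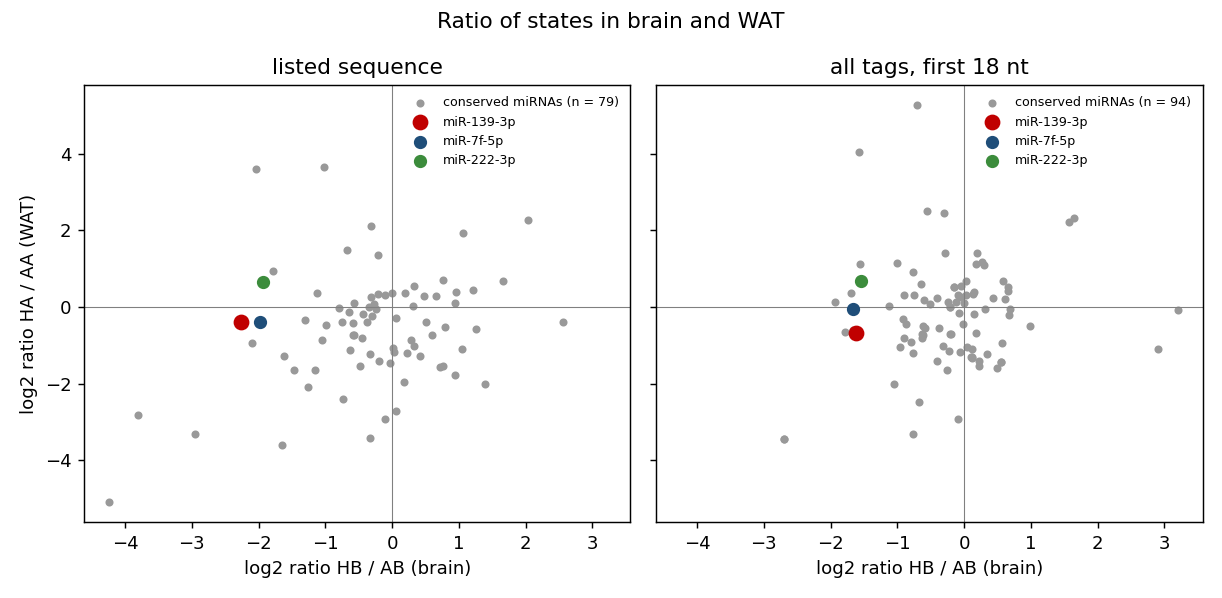
Log2 ratio of hibernating to active in brain (horizontal) and WAT (vertical) for conserved miRNAs with at least 10 reads in each pair, counted by the listed sequence (left) and by the first 18 nt (right), each scaled by TMM. miR-139-3p lies at -2.26 in brain and -0.41 in WAT on the left and at -1.62 and -0.69 on the right, with miR-7f-5p and miR-222-3p beside it in brain.

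The miRNAs with the pattern most like that of miR-139-3p were taken by the Euclidean distance of log2(RPM + 1), centred over the 4 libraries, among 87 other conserved miRNAs with at least 100 reads. By the listed tags they were miR-222-3p (distance 0.77), miR-486-3p (0.93), miR-7b-5p (1.19), miR-7d-5p (1.22) and miR-151-3p (1.28), against a median distance of 3.22. By the first 18 nt they were miR-7f-5p (0.56), miR-30a-3p (0.81), miR-185-5p (0.82), miR-7a-5p (0.95) and miR-29-5p (0.97), against a median of 3.18. No name was on both lists, and the likeness is a description over 4 libraries, each scaled to its own clean reads.

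In the order of the brain ratios by listed tags, miR-486-3p at -2.10 (238 reads in AB and 55 in HB) and miR-200b-3p at -2.04 (99 and 24) came next above miR-139-3p. miR-486 is known from red blood cells and miR-200b from epithelia. The counting intervals of both, -2.55 to -1.68 and -2.74 to -1.38, held the value of miR-139-3p. In WAT its neighbours were miR-365-3p and miR-16-5p below and miR-3958-3p and miR-532-3p above, between -0.52 and -0.39.

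Conserved miRNAs alike in base composition or length were set beside it. The 7 others with a G and C share of at least 60% had a median brain log2 ratio of -0.59, and the 91 with a lower share one of 0.01. With the first 18 nt these medians were -0.95 (n = 8) and -0.02 (n = 103), and in WAT by listed tags they were -0.06 (n = 8) and -0.44 (n = 72). Those of 22 or 23 nt had a median brain log2 ratio of -0.56 (n = 40) and those of other lengths one of 0.30 (n = 58), which became -0.14 and -0.02 with the first 18 nt. The part of base composition and length in the brain value of miR-139-3p was not tested.

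The tissue labels were checked with miRNAs known from single tissues. The 6 neuronal tags of miR-124, miR-9 and miR-153 together had 51523 RPM in AB and 37604 in HB, mostly of miR-124a-3p, against 30.9 in AA and 34.7 in HA, where miR-124-5p, miR-153-3p and miR-153-5p were at 0. miR-219, known from oligodendrocytes, had 5016 RPM in AB, 3414 in HB, 2.10 in AA and 1.04 in HA over both arms, mostly of miR-219-3p. The stromal and vascular miR-199 and miR-145, mostly miR-199-3p, had 40201 RPM in AA and 13586 in HA, against 805 in AB and 527 in HB. Neuronal and oligodendrocyte miRNAs were thus far lower in both WAT libraries than in brain, and stromal ones were far higher there than in brain. Muscle miRNAs were present in every library, at 18253 RPM in AA, 17409 in HA, 1605 in AB and 1948 in HB, mostly of miR-1-3p. miR-193-3p, miR-365-3p and miR-378-3p, known from fat, had 15853 RPM in AA and 1058 in HA over the 3, nearly all of it miR-378-3p, against 463 in AB and 122 in HB.

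The summed reads of these lists were compared between the states without a test, and a sum can rest on 1 abundant tag. In brain, HB over AB for the summed reads gave a log2 ratio of -0.16 for the neuronal tags (3 of 6 below 0), -0.27 for the oligodendrocyte tags (1 of 2), -0.32 for the stromal tags (2 of 3), -1.63 for the fat tags (1 of 3) and 0.57 for the muscle tags (2 of 3). The fat sum followed miR-378-3p at -1.66, whereas miR-193-3p had 1.39 and miR-365-3p 0.79, both at few reads. The muscle sum followed miR-1-3p at 0.66, whereas miR-206-3p had -0.24 and miR-133-3p -1.16, the last at few reads. The 4 blood cell tags of miR-142 and miR-486 had -0.86, with 62.4 RPM in AB and 28.1 in HB, and 2 of the 3 with at least 10 reads were below 0. miR-486-5p, the most abundant of them, had -1.12 and miR-486-3p -2.10, whereas miR-142-5p had 1.21 (59 reads in AB and 136 in HB). In WAT, the summed log2 ratio of HA to AA was -1.22 for the stromal tags (2 of 3 below 0, miR-145-3p at 0.67), -3.56 for the fat tags (3 of 3), 0.52 for the neuronal tags (1 of 3) and -0.66 for the oligodendrocyte tags (1 of 1), the last at very few reads. That of the blood cell tags was 0.27 with TMM (2 of 4 below 0) but -0.080 with clean reads, from 268 RPM in AA and 253 in HA. That of the muscle tags was 0.28 with TMM but -0.068 with clean reads, and of its members miR-1-3p had 0.29, miR-206-3p -0.061 and miR-133-3p -1.64. The part of these cell types in the values of miR-139-3p was not tested.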

How the data were processed

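The authors deposited the count of reads of each different sequence, not normalized, after their own trimming of adapters and quality filtering, with tools not given in the sources used here. Mapping and miRNA calling came later and are not in these counts. The mature sequences were read from the supplementary list of the study, without its values, and a miRNA took the reads of the sequence that equalled it. Libraries were scaled with TMM (edgeR 4.0.16, R 4.3.3) over all listed miRNAs of a pair. Ratios carry exact Clopper-Pearson intervals at 95% and differences of ratios Poisson intervals, and a count of 0 was set to a floor of 3 reads. Without replicates no p-value was calculated. Depth was 10007650 to 12159756 clean reads per library, and PCR copies are not independent.

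miR-139-3p, the lists and the comparisons were chosen with earlier results of these data known. The named miRNAs were miR-139-3p and its most abundant tags, listed miRNAs with its seed, those the study picked for brain but not WAT, the 5 nearest patterns, neighbours in the order of the ratios and the marker miRNAs. The alternatives were other scalings (clean reads, DESeq2 1.42.0 median of ratios, TMM over conserved miRNAs, summed reads of the listed miRNAs), other count rules and thinned libraries (random seed 1). In simulated pairs with 60 miRNAs changed 4-fold, as many up as down, 59 were recovered in brain over 153 miRNAs and 60 in WAT over 142. These counts held counting error and a common depth factor only. The simulation therefore checks the calculation and says nothing about the spread between pools or the choice of scaling. Other work used Python 3.11.15, NumPy 2.4.6, SciPy 1.17.1 and Matplotlib 3.10.9.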

Additional observations from a re-analysis of the deposited data

Results flagged for a closer look

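Tags that no miRNA of the study's list covers held reads above the 3 that a count of 0 allows. A search for unlisted tags that end, at most 2 bases further on, in a stretch complementary to bases 1 to 7 of miR-139-3p was added after the data had been seen. It gave one abundant group, whose members share their first 18 nt and had 15041 reads in all, of which 4444 were in AB, 3634 in HB, 4710 in AA and 2253 in HA. The next such tag with another start had 27 reads in all. The most abundant tag of the group and the one that ends 2 bases past the complementary stretch (in capitals) were as follows.
most abundant unlisted tag: tctacagtgcacgtGTCTCCA
unlisted tag with 2 more bases: tctacagtgcacgtGTCTCCAgt
The first had 1451 reads in AB, 1295 in HB, 1519 in AA and 590 in HA, and the second 1238, 755, 1236 and 523. No hairpin was used here, so that these tags come from the other arm of mir-139 was not tested.

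With the scaling of the first 18 nt, the group had a log2 ratio of HB to AB of -0.55 (95% counting interval -0.62 to -0.49), against -1.62 for miR-139-3p counted in the same way, a difference of -1.07 (-1.15 to -0.98). In WAT the group had -0.82 (-0.90 to -0.75), and miR-139-3p exceeded it by 0.13 (0.03 to 0.23). Reads of the group per read of miR-139-3p were 0.422 in AB, against 0.884 in HB, 0.985 in AA and 0.899 in HA, so active brain was the library in which miR-139-3p exceeded these tags most. The brain difference and the values of AB and HB include the brain reads that chose miR-139-3p and are a description.

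The reads of miR-139-3p without its first base, which the listed sequence leaves out, numbered 1909 over the 4 libraries, and their shares are given in the report.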

How the results depend on the processing

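The libraries have no replicates, and depth limits the values that rest on few reads, such as 68 for the 18 nt form in HA. No paired analysis was possible because each condition has 1 library and no test was run. All log2 ratios of this paragraph belong to miR-139-3p. The brain ratio of -2.26 stayed below -1 under all 9 alternatives. It was -2.55 with total clean reads, -1.62 with tags of the first 18 nt, -1.55 with tags of bases 2 to 17, -1.15 with the 21 nt form and -1.64 with the first 18 nt and clean reads, a combination added after seeing the data. The WAT ratio of -0.41 turned to 0.37 with TMM over conserved miRNAs and was otherwise below 0, at -0.76 with clean reads, -0.16 with the DESeq2 median of ratios, -0.088 with the summed reads of the listed miRNAs, -0.69 with the first 18 nt, -0.62 with bases 2 to 17, -1.45 with the 21 nt form, -0.23 with thinned libraries and -0.94 with the added combination. The WAT to brain ratio of -0.75 in the active state was -0.93 with the median of ratios, -1.20 with the first 18 nt, -1.13 with bases 2 to 17, -1.23 with the 21 nt form and -1.33 with the added combination. That of 1.05 in hibernation was 1.62 with the summed reads of the listed miRNAs, and it changed sign with each other count rule, to -0.54 with the first 18 nt, -0.070 with bases 2 to 17, -1.58 with the 21 nt form and -0.64 with the added combination. The brain minus WAT difference of -1.86 was -2.11 with the median of ratios, -2.50 with TMM over conserved miRNAs, -2.27 with the summed reads of the listed miRNAs, -0.93 with the first 18 nt and with bases 2 to 17, -0.69 with the added combination and 0.30 with the 21 nt form. The counts of listed miRNAs past 1 in size fell with 100 or more reads to 14 lower and 18 higher in brain and 21 lower and 17 higher in WAT, and with the whole interval beyond 1 to 14 and 15 in brain and 18 and 15 in WAT. Fewer miRNAs than the 153 in brain and 142 in WAT reach 100 reads. That fall in count therefore need not be a fall in share, and the shares were not calculated. With the first 18 nt, where miRNAs of the same start are counted more than once, 21 were higher in brain. With TMM over conserved miRNAs 19 were lower and 51 higher in WAT. The count rules change which reads are counted, and the cause of the other changes was not tested.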
